A study of Mus musculus with 4 samples.

Results

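The 10 genes described here encode the MHC class II antigen presentation machinery (Cd74, H2-Aa, H2-Ab1, H2-Eb1, H2-DMa, H2-DMb1 and Ciita) and the co-stimulatory molecules CD80, CD83 and CD86 (Cd80, Cd83 and Cd86), and were chosen by name from the 47729 genes listed in the count table. RNA sequencing was done on Treg cells of C57BL/6 mice, labelled as splenic, in 4 libraries, 2 per genotype. The WT libraries had the genotype Tfrc +/+ Foxp3 YFP-Cre/+. The TfR1-deficient libraries, labelled TfR1 cko, had Tfrc fl/fl with Foxp3 YFP-Cre/+, in which Cre removes the floxed part of the gene of the transferrin receptor TfR1. All mice, controls included, carried the Foxp3 YFP-Cre allele, Cre is driven by the Foxp3 locus, and by the study's methods the cells were sorted from female mice as CD25+ YFP+ CD4 T cells. Because Foxp3 is X-linked, 1 copy of the allele marks only the cells that use that X chromosome, so that the sorted cells came from mosaic mice, which by the reporting summary were aged 6 to 8 weeks. The labels give spleen as the tissue, while a supplementary legend on this experiment names lymph nodes as well. The question here is how these genes differed between the genotypes and whether they followed macrophage genes such as Csf1r, the receptor of macrophage colony-stimulating factor, from library to library.

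MHC class II molecules are pairs of an α and a β chain that carry peptides from endosomes to the surface of antigen-presenting cells, where CD4 T cells read them. CD74, the invariant chain, fills the groove of new class II molecules, H2-DM removes its last fragment so that peptide can bind, and CIITA is the co-activator that switches the class II genes on in macrophages, dendritic cells and B cells. CD80 and CD86, the B7 molecules, bind CD28 and, more tightly, CTLA-4, which Treg cells use to take them off other cells. CD83 is a surface molecule of mature dendritic cells and of activated lymphocytes, Treg cells among them.

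The libraries held between 10841939 and 17278448 counts, and values are given as CPM, the counts of a gene per 1000000 counts of its library, with TMM scaling. The genes of T cells and Treg cells were high in every library, with a summed level of 13101 to 15356 CPM over 15 of 15 genes, and Foxp3 was at 194 and 130 CPM in WT and at 122 and 114 CPM in TfR1-deficient cells. Tfrc itself did not separate the labels, at 50.8 and 54.1 CPM in WT and 56.1 and 48.3 CPM in TfR1-deficient cells (log2 fold change -0.01), and the counts give no information on whether the remaining transcript lacks the floxed part. Markers of red pulp macrophages set libraries of one genotype apart. Their summed level over 20 genes was 1210 CPM in WT replicate 1, 98.3 CPM in WT replicate 2, 73.8 CPM in TfR1-deficient replicate 1 and 3646 CPM in TfR1-deficient replicate 2. Csf1r was at 124, 1.97, 4.96 and 371 CPM in the same order of libraries. In bulk RNA, fewer cells of a type and less RNA per cell cannot be told apart.

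The chains of the class II molecules were low in the libraries with little Csf1r and 8.34 to 19.6 times higher in the other library of the same genotype. H2-Ab1, the β chain of I-A (chromosome 17, 34263227 to 34269418, GRCm38.p6), was at 45.8 CPM in WT replicate 1, 4.50 CPM in WT replicate 2, 10.3 CPM in TfR1-deficient replicate 1 and 189 CPM in TfR1-deficient replicate 2. The genotypes overlapped, since TfR1-deficient replicate 1 lay between the WT libraries and TfR1-deficient replicate 2 above both. The ratio of WT replicate 1 to WT replicate 2 was 10.2 (95% interval 7.57 to 14.0), and that of TfR1-deficient replicate 2 to replicate 1 was 18.3 (15.7 to 21.4). These intervals and those of the ratios that follow are exact conditional binomial ones and cover counting error only.

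H2-Aa, the α chain of I-A (chromosome 17, 34282744 to 34287823), was at 16.6, 0.937, 3.05 and 59.9 CPM in WT replicates 1 and 2 and TfR1-deficient replicates 1 and 2. Its ratios within the genotypes were 17.7 (9.44 to 37.5) in WT and 19.6 (14.8 to 26.4) in TfR1-deficient cells, and the lowest level rested on 10 counts. H2-Eb1, the β chain of I-E (chromosome 17, 34305867 to 34316674), was at 7.04, 0.844, 1.67 and 22.1 CPM, with ratios of 8.34 (4.20 to 18.9) and 13.2 (9.03 to 20.1). All 3 chains had their highest level in TfR1-deficient replicate 2, then WT replicate 1, TfR1-deficient replicate 1 and WT replicate 2, the order in which Csf1r stood. Of all 12536 genes tested, 6.24% had that order.

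The proportions of the chains to each other varied less than their levels. The CPM ratio of H2-Aa to H2-Ab1 was 0.363, 0.208, 0.296 and 0.317 in WT replicates 1 and 2 and TfR1-deficient replicates 1 and 2, and that of H2-Eb1 to H2-Ab1 was 0.154, 0.188, 0.162 and 0.117. H2-Ab1 itself differed by up to 41.9-fold between libraries. The α chain that pairs with H2-Eb1 is not made in the b haplotype of C57BL/6 mice, and its gene, listed as H2-Ea-ps, had 0 counts in all 4 libraries, where 3 counts, the floor used here, would be 0.173 to 0.281 CPM. H2-Eb2, a close relative of H2-Eb1 with which reads may be shared, was at 0 to 0.146 CPM.

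**Figure D1:**
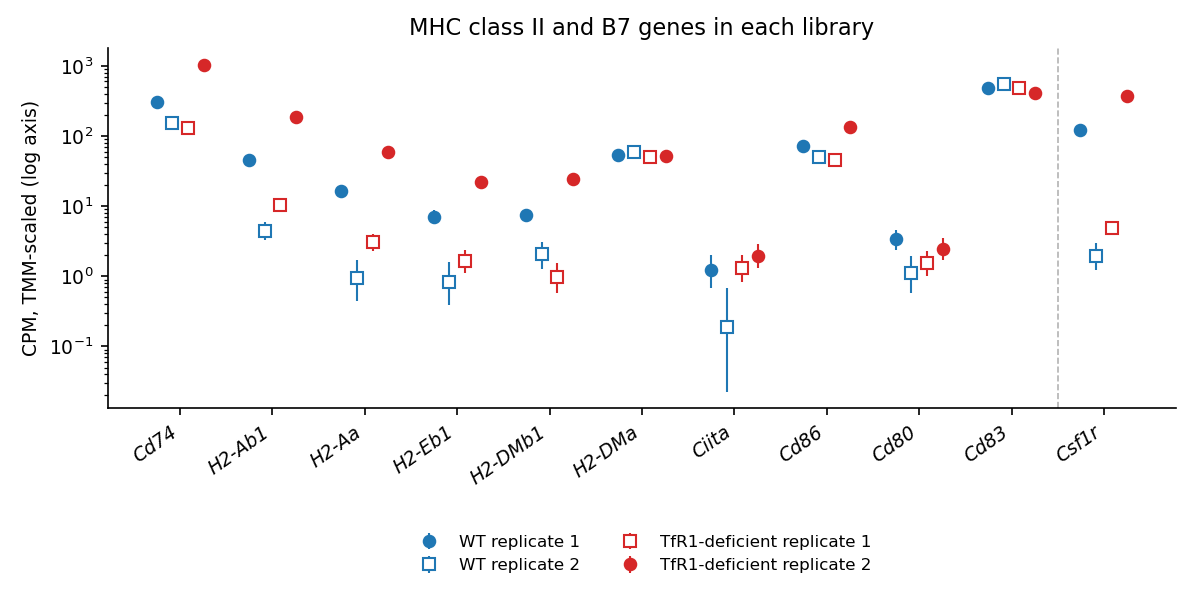
Level of each gene in each library, in TMM-scaled CPM on a log axis, with bars for the exact 95% Poisson interval of the count. Circles mark WT replicate 1 and TfR1-deficient replicate 2, squares the other library of each genotype, and Csf1r stands at the right. The circles lie above the squares for Cd74, H2-Ab1, H2-Aa, H2-Eb1, H2-DMb1, Cd86 and, at low counts, Cd80, while H2-DMa and Cd83 stay level.

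Class II genes share a promoter layout in which an X box and, downstream of it, a Y box that reads ATTGG lie shortly before the start. RefSeq promoter windows (GRCm38.p6, 250 bases before to 50 after a start) were at hand for 5 of the 10 genes, and the stretches from -130 to -31 of the 3 that hold both boxes are shown because those 3 genes differed so much from library to library. Capitals mark the letters of an X box, searched as AAC, then 2 or 3 letters, then TGANG, and of the Y box ATTGG 10 to 30 letters further on. The letters searched for the X box were chosen after these promoters had been read.
H2-Aa, chr17:34287854-34287953, minus strand: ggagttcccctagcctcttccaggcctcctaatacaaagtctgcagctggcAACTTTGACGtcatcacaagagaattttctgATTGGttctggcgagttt
H2-Eb1, chr17:34305737-34305836, plus strand: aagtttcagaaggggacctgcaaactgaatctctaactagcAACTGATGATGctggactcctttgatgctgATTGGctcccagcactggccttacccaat
H2-DMb1, chr17:34153061-34153160, plus strand: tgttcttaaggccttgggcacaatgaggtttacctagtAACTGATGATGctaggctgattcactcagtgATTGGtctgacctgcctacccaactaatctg

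The boxes stood at a similar distance from each other in the 3 promoters, with 21 letters between them in H2-Aa, 19 in H2-Eb1 and 20 in H2-DMb1. The Y box began at -48, -59 and -61. Searched on both strands, the pair of boxes was in 73 of the 32851 windows (0.222%), and ATTGG or CCAAT alone in 37.4%. Neither of the 2 windows of H2-DMa, which belong to different starts, nor that of Cd80 held the pair. Among the other genes of the class II pathway with a window, H2-DMb2 and H2-Ob held it. A match describes letters and not the binding of a factor. H2-DMb1, among the 3 shown, and H2-DMb2 and H2-Ob did not have their 4 libraries in the order of H2-Aa and H2-Eb1.

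Cd74 (chromosome 18, 60803849 to 60812652) was at 307 CPM in WT replicate 1, 151 CPM in WT replicate 2, 130 CPM in TfR1-deficient replicate 1 and 1034 CPM in TfR1-deficient replicate 2. It was therefore present at over 100 CPM also where the class II chains were scarce. The ratio within WT was 2.03 (1.92 to 2.16), and that within TfR1-deficient cells 7.93 (7.59 to 8.30). Per kilobase of exon, Cd74 stood at 107 and 92.4 CPM in WT replicate 2 and TfR1-deficient replicate 1, against 2.74 and 6.27 CPM per kilobase for H2-Ab1. The CPM ratio of Cd74 to H2-Ab1 was 33.6 and 12.6 in these libraries but 6.72 in WT replicate 1 and 5.48 in TfR1-deficient replicate 2. Cd74 also differed in order from the chains, in that TfR1-deficient replicate 1 and not WT replicate 2 was lowest.

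The chains of the H2-DM heterodimer, the peptide exchange factor, behaved differently. H2-DMb1, the β chain (chromosome 17, 34153191 to 34160229), was at 7.45, 2.06, 0.980 and 24.7 CPM in WT replicates 1 and 2 and TfR1-deficient replicates 1 and 2. Its ratios were 3.61 (2.25 to 6.05) within WT and 25.3 (15.5 to 43.9) within TfR1-deficient cells. H2-DMa, the α chain (chromosome 17, 34119693 to 34139101), was level at 54.2, 59.6, 49.8 and 52.4 CPM, and its ratios were 0.909 and 1.05. Per kilobase, H2-DMa stood at 30.3 to 36.3 CPM and H2-DMb1 at 0.663 to 16.7 CPM, so that the α chain exceeded the β chain in every library. Reads of H2-DMb1 may be shared with its near-identical neighbour H2-DMb2, which was at 4.01, 4.03, 1.73 and 3.80 CPM.

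Ciita (chromosome 16, 10480014 to 10531064) was scarce in all libraries, with 15 and 2 counts in WT and 23 and 27 counts in TfR1-deficient cells. These counts are 1.23 and 0.187 CPM against 1.33 and 1.97 CPM, so that both TfR1-deficient libraries lay above both WT libraries, as for 16.0% of all tested genes. WT replicate 1 and TfR1-deficient replicate 1 were close, with overlapping 95% Poisson intervals of 0.687 to 2.03 and 0.840 to 1.99 CPM. The ratio of replicate 2 to replicate 1 in TfR1-deficient cells was 1.49, with an interval of 0.821 to 2.72 that includes equal levels, and Ciita did not share the order of the chains.

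The rest of the class II pathway, listed apart from these 10 genes, showed no common direction between the genotypes. Of 18 genes, 15 were tested, their median log2 fold change between genotypes was 0.04, 9 were higher and 6 lower in TfR1-deficient cells, and 0 passed at an adjusted p under 0.05 (edgeR). H2-Oa, a chain of the DM inhibitor H2-DO, was the 1 gene that passed unadjusted (-0.88, SE 0.33). Here this means a p under 0.05 with a log2 fold change of at least 0.5 in size, which 2.48% of all tested genes reached as lower. Some of its members did differ between libraries of one genotype. The endosomal protease gene Lgmn was at 125, 48.7, 40.0 and 322 CPM, and March1, whose product ubiquitinates class II molecules and CD86, was at 3.27, 1.12, 0.0576 and 15.6 CPM. Ctss, the protease that trims the invariant chain, was at 345, 325, 248 and 384 CPM, within a narrower range. H2-Ob, the other chain of H2-DO, was at 76.3, 122, 119 and 89.1 CPM, lowest in the libraries where Csf1r was highest.

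Cd86 was at 73.2 CPM in WT replicate 1, 50.3 CPM in WT replicate 2, 46.3 CPM in TfR1-deficient replicate 1 and 136 CPM in TfR1-deficient replicate 2. The gene (chromosome 16, 36568956 to 36666158) was thus expressed in all 4 libraries and highest where Csf1r was. Its ratios were 1.45 (1.30 to 1.62) within WT and 2.94 (2.70 to 3.19) within TfR1-deficient cells, smaller than those of H2-Aa, H2-Ab1, H2-Eb1 and H2-DMb1, and its order of libraries was that of Cd74. Cd80 (chromosome 16, 38457430 to 38495958) was low, at 3.36, 1.12, 1.56 and 2.48 CPM from 12 to 41 counts a library. It was highest in WT replicate 1, and its ratio within TfR1-deficient cells, 1.60, had an interval of 0.934 to 2.75. Per kilobase, Cd86 exceeded Cd80 in every library, at 12.3 to 36.1 against 0.385 to 1.15 CPM.

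Cd83 (chromosome 13, 43785112 to 43803133) was high and even, at 479 and 551 CPM in WT and 476 and 416 CPM in TfR1-deficient cells. Both TfR1-deficient libraries lay below both WT libraries, as they did for H2-DMa and for 18.9% of all tested genes. WT replicate 1 and TfR1-deficient replicate 1 were close for Cd83, with overlapping 95% Poisson intervals of 467 to 492 and 466 to 487 CPM. For H2-DMa, the intervals of WT replicate 1 and TfR1-deficient replicate 2 overlapped as well. Within each genotype, Cd83 was lower in the library with more Csf1r, with ratios of 0.869 (0.838 to 0.902) in WT and 0.875 (0.845 to 0.905) in TfR1-deficient cells. Per kilobase, Cd83 stood at 186 to 246 CPM, above Cd86 and Cd80 in every library, and above Cd74 in the libraries with little Csf1r.

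**Figure D2:**
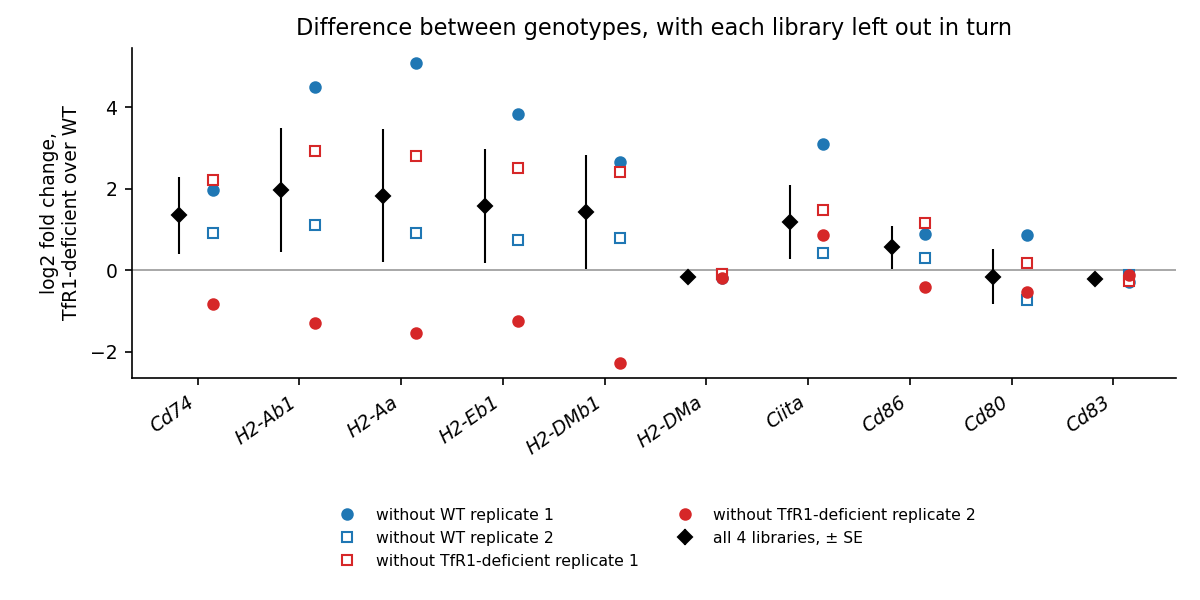
Log2 fold change of each gene between the genotypes (diamonds, ± SE, 2 against 2 libraries) and the value after each library is left out. Without TfR1-deficient replicate 2, Cd74, H2-Ab1, H2-Aa, H2-Eb1, H2-DMb1 and Cd86 lay below 0, while H2-DMa and Cd83 stayed between -0.29 and -0.09.

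None of the 10 genes passed the test between the genotypes. All 10 passed the filter on low counts, and 0 passed at an adjusted p under 0.05 and a log2 fold change of at least 0.5 in either direction by the quasi-likelihood test of edgeR, adjusted over all genes after Benjamini and Hochberg, as against 0% of all tested genes. At an unadjusted p under 0.05, 655 genes passed in all, 511 of them with the minimum change (1.60% of all tested genes higher in TfR1-deficient cells and 2.48% lower), and 0 of the 10 were among them. The lowest unadjusted p of the 10 was 0.212 for Cd74. DESeq2 called 44 genes at an adjusted p under 0.05 and the minimum change, 0 of the 10 among them. With 2 libraries a genotype, an exact permutation test of 1 gene cannot go below p = 0.333.

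The fitted changes were large for the class II genes but so were their errors. H2-Ab1 had a log2 fold change of 1.98 (SE 1.52, edgeR adjusted p = 0.950), with means of 25.1 ± 29.2 CPM in WT and 99.4 ± 126 CPM in TfR1-deficient cells (SD, n = 2). H2-Aa was at 1.83 (SE 1.63), H2-Eb1 at 1.58 (SE 1.39), H2-DMb1 at 1.42 (SE 1.40) and Cd74 at 1.34 (SE 0.94). Ciita was at 1.18 (SE 0.91) and Cd86 at 0.56 (SE 0.52), and the negative values were those of Cd80, -0.16 (SE 0.67), H2-DMa, -0.15 (SE 0.15), and Cd83, -0.21 (SE 0.15). The median over the 10 genes was 1.26, beside 0.01 over all tested genes.

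A single library decided the sign of the median and of 6 genes. Without TfR1-deficient replicate 2 the median was -0.68, and Cd74 moved to -0.82, H2-Ab1 to -1.29, H2-Aa to -1.53, H2-Eb1 to -1.25, H2-DMb1 to -2.28 and Cd86 to -0.42. Without TfR1-deficient replicate 1, these 6 genes were all higher in the remaining TfR1-deficient library, from 1.17 for Cd86 to 2.93 for H2-Ab1. Ciita stayed positive whichever library was left out, from 0.41 to 3.09, the latter without WT replicate 1. H2-DMa and Cd83 stayed negative. Cd80 turned positive without WT replicate 1, at 0.86, and without TfR1-deficient replicate 1, at 0.17. Keeping genes with as little as 1 count in the fit gave adjusted calls for Cd74, H2-Aa, H2-Ab1 and H2-Eb1. Over all 22368 genes with a count, that setting called 167 higher and 95 lower. That fit put the SE of Cd74 at 0.20, while its level differed 7.93-fold between libraries of one genotype.

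The difference between libraries of one genotype had the same direction in both genotypes for 8 of the 10 genes. These were higher in WT replicate 1 than in WT replicate 2 and in TfR1-deficient replicate 2 than in TfR1-deficient replicate 1, as were 32.9% of all tested genes, H2-DMa and Cd83 being the others. The median log2 ratio (with a prior count of 2) was 1.62 in WT and 2.27 in TfR1-deficient cells, beside 0.004 and -0.03 over all tested genes. For the macrophage list the medians were 4.55 and 5.79, and 18 of 18 tested genes had that direction. In WT, 12 of the 18 had a larger ratio than any of the 10 genes, and in TfR1-deficient cells 15 did. Between the libraries with little Csf1r, TfR1-deficient replicate 1 over WT replicate 2, the median log2 ratio of the 10 genes was 0.15. Between those with much of it, TfR1-deficient replicate 2 over WT replicate 1, it was 1.26. The macrophage list had medians of 0.38 and 1.68 in these comparisons, and all tested genes 0.009 and -0.004.

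**Figure D3:**
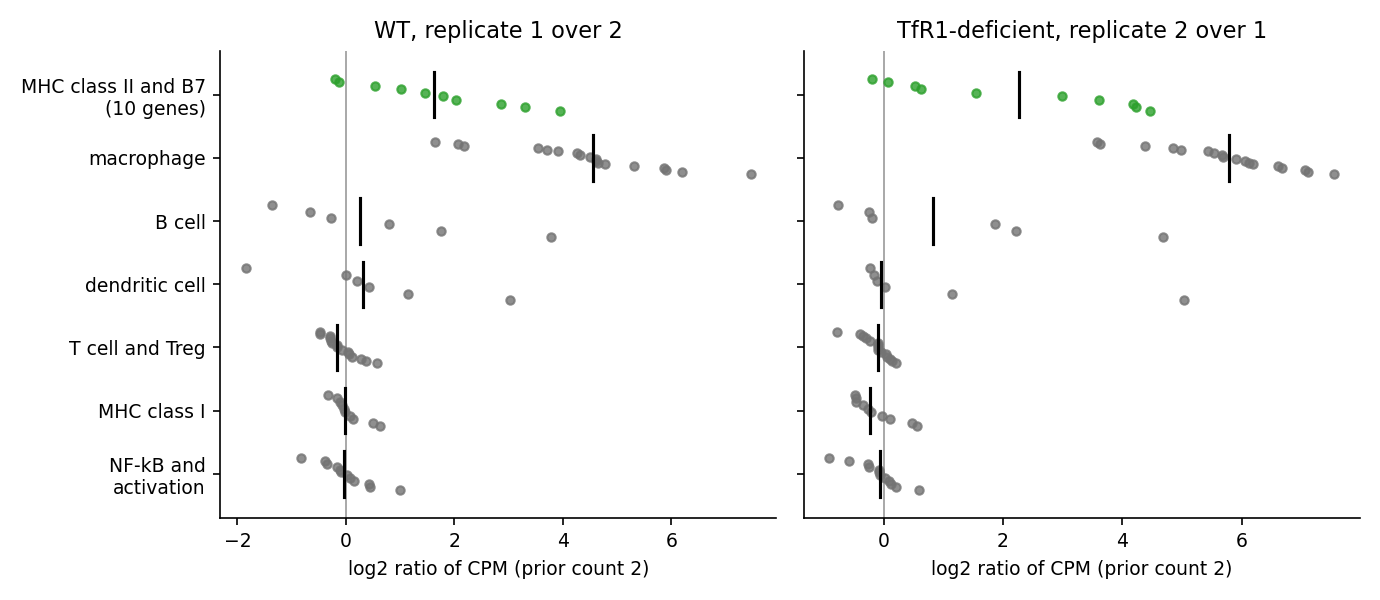
Log2 ratio of CPM (prior count 2) between the libraries of one genotype for the tested genes of each list, 1 point a gene, with a bar at the median. The 10 genes (green) spread from slightly below 0 up to the lower part of the macrophage list in both panels, and the T cell, MHC class I and NF-kB lists centre near 0.

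Measured as a difference in CPM, 6 of the 10 genes stood within the range of macrophage genes. For each gene, the difference between the TfR1-deficient libraries (replicate 2 minus 1) was divided by that between the WT libraries (replicate 1 minus 2). This quotient was 3.01 for Csf1r and ran from 2.05 to 5.90 over the 18 tested macrophage genes, with a median of 3.35. It was 3.30 for H2-Eb1, 3.62 for H2-Aa, 3.92 for Cd86, 4.32 for H2-Ab1, 4.41 for H2-DMb1 and 5.78 for Cd74, with counting SEs of 0.48, 0.31, 0.58, 0.23, 0.78 and 0.24. These 6 genes thus lay inside the range of the macrophage genes, Cd74 near its upper end. Ciita, at 0.62 (SE 0.50), and Cd80, at 0.42 (SE 0.26), lay below the range, and H2-DMa and Cd83 gave no quotient because a difference was negative. Of all tested genes 4122 had a quotient, with a median of 0.91. The 3 tested dendritic cell genes with one ran from 0.09 to 4.78 (median 4.39). Those of the B cell list, also 3, ran from 0.45 to 3.86 (median 1.94). The range was therefore not particular to macrophage genes, and the share of all tested genes inside it was not counted.

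**Figure D4:**
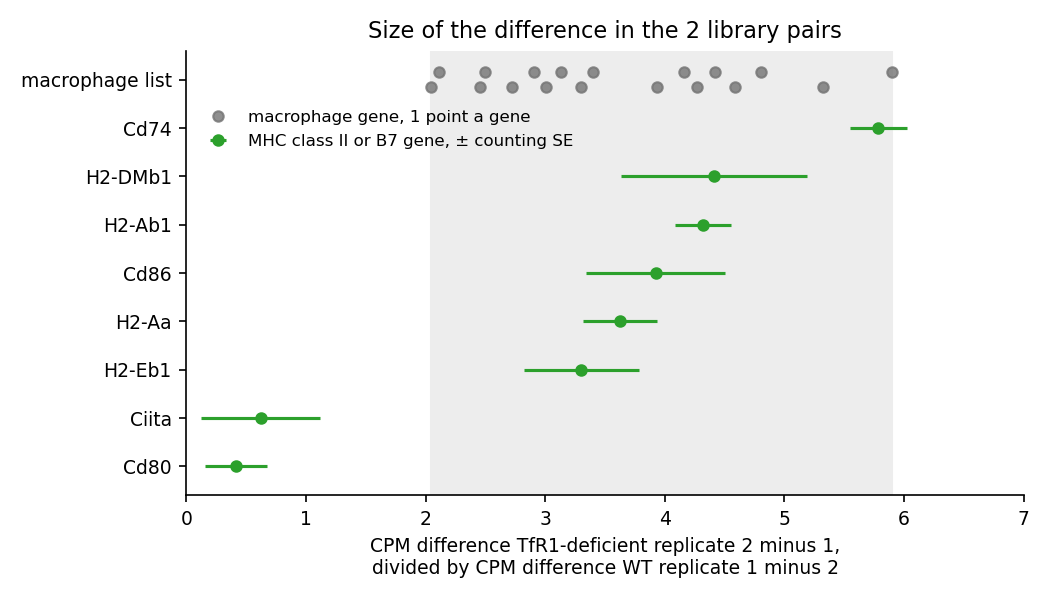
Quotient of the CPM difference between the TfR1-deficient libraries and that between the WT libraries, for the 8 genes that have one (green, ± counting SE) and the 18 tested macrophage genes (grey points in the top row, their range shaded). Cd74, H2-DMb1, H2-Ab1, Cd86, H2-Aa and H2-Eb1 fall inside the range of the macrophage genes, 2.05 to 5.90, and Ciita and Cd80 lie below them.

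Set against Csf1r, and among the 8 genes that gained in both genotypes, the gain was most alike for H2-Eb1, H2-Aa and Cd86. It was least alike for Cd80 and Ciita. For each 100 CPM gained by Csf1r, H2-Eb1 gained 5.08 CPM in WT and 5.58 CPM in TfR1-deficient cells. H2-Aa gained 12.9 and 15.5 CPM, H2-Ab1 33.9 and 48.6 CPM, H2-DMb1 4.42 and 6.49 CPM, and Cd86 18.7 and 24.4 CPM. Cd74 gained 128 CPM in WT and 247 CPM in TfR1-deficient cells. These 6 gains were larger in TfR1-deficient cells. Those of Cd80, 1.83 and 0.253 CPM, and Ciita, 0.854 and 0.176 CPM, were smaller. By the same measure H2-DMa changed by -4.45 CPM in WT and 0.717 CPM in TfR1-deficient cells, and Cd83 by -59.1 and -16.3 CPM. Whether macrophage RNA in the sorted samples accounts for these levels was not tested.

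Markers of other antigen-presenting cells did not stand at one level. Of the B cell list, 14 of 15 genes had a row and 6 were tested, with a summed level of 1144 to 1588 CPM that was nearly all Ighm. Ighm, the μ heavy chain, was at 1270, 1535, 1238 and 1077 CPM in WT replicates 1 and 2 and TfR1-deficient replicates 1 and 2, and Cd79b, a chain of the B cell receptor complex, at 24.1, 38.5, 34.1 and 28.6 CPM, both present in every library and, within each genotype, lower in the library with more Csf1r. Pax5 was at 0 CPM in both WT libraries and at 0.288 and 0.438 CPM in TfR1-deficient cells, and Ms4a1 was at 0 to 0.469 CPM. Of the 15 dendritic cell genes 6 were tested. The summed level of the 15 was 79.0 to 100 CPM, most of it Bst2 (47.6 to 51.6 CPM) and Ccr9 (19.4 to 30.3 CPM). Clec10a and Clec4a4 were at 0 in all libraries, and Flt3, Clec9a and Siglech did not exceed 0.146 CPM. A few genes of these lists stood highest in TfR1-deficient replicate 2, as the class II chains did. Itgax, encoding CD11c, was at 1.06, 0, 0 and 4.67 CPM, Wdfy4, needed for cross-presentation, was at 0.737, 0.187, 0.288 and 8.32 CPM, and Bank1, an adaptor of B cells, was at 14.2, 8.15, 6.22 and 29.4 CPM.

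The genes whose levels over the 4 libraries were most like the mean profile of Cd74, H2-Aa, H2-Ab1 and H2-Eb1 were Nr1h3, Tns3, Tnfrsf21, Apoe and Kcnj10, with root mean square differences of centred log2 CPM from 0.0596 to 0.208. Nr1h3, encoding the oxysterol receptor LXRα, was at 9.90, 1.22, 2.25 and 31.6 CPM, and Apoe, a lipid carrier made by macrophages and a target of LXR, was at 171, 19.1, 40.6 and 611 CPM. Among 11594 genes ranked by this likeness, Csf1r came 757th, its range being wider. The median rank was 304 for the macrophage list, 2489 for the dendritic cell list, 5214 for the B cell list, 7373 for the T cell list and 8021 for MHC class I. Tns3, Tnfrsf21 and Kcnj10 were below 6 CPM in every library, and with 4 libraries a likeness is a description.

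Nearest to Cd86 were Ccdc148, Zfp593, Ctsb, Tcn2 and Acp2, of which Ctsb and Acp2 encode lysosomal enzymes. Ctsb was at 1195, 887, 810 and 2403 CPM, like Cd86 present in every library and highest in TfR1-deficient replicate 2. By likeness to Cd86, Csf1r came 11583rd of 11594 genes. The median rank was 11552 for the macrophage list and 6274 for the T cell list. This measure weighs the size of the differences between libraries as well as their order. Nearest to Cd80 were Rps2, Pask, Gm10294, Gm12454 and Hist1h2bj, with a median rank of 11561 for the macrophage list and 6291 for the T cell list. Nearest to Cd83 were Ksr1, Haus1, Ercc4, 1110058L19Rik and Ptgr2, with differences of at most 0.0158. For Cd83 the median rank was 1866 for MHC class I, 2681 for the T cell list and 11560 for the macrophage list. For the class II profile the macrophage list had ranked ahead of both other lists.

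The MHC class I pathway, which all nucleated cells use, did not share the differences of class II between libraries. Its 10 tested genes had median log2 ratios of -0.02 within WT and -0.24 within TfR1-deficient cells, and a median log2 fold change between genotypes of -0.19. All 10 values were negative, beside 6135 of all 12536 tested genes, and 0 passed an adjusted p under 0.05 (edgeR). Nlrc5, the class I counterpart of Ciita, passed unadjusted at -0.53 (SE 0.19), as 2.48% of all tested genes did as lower. Unlike Ciita, Nlrc5 was abundant, at 353, 334, 275 and 201 CPM.

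Of the tested genes listed as B7 family and related molecules 5 of 6, and of the receptors of these molecules 8 of 9, had a negative log2 fold change, but none passed an adjusted p under 0.05 (edgeR). Of all 12536 tested genes, 6135 had a negative value, and 2.48% passed unadjusted as lower. The 6 tested of the 8 listed, among them Btla and its ligand Tnfrsf14, which are not of the B7 family, had a median log2 fold change of -0.41, and Cd274, encoding PD-L1, passed unadjusted at -0.70 (SE 0.22) with 40.5 and 30.8 CPM in WT and 22.3 and 21.7 CPM in TfR1-deficient cells. Of the 9 receptors and other binding partners, median -0.59, Ctla4 and Cd44 passed unadjusted. Ctla4, which binds the products of Cd80 and Cd86, was at 407 and 427 CPM in WT and 241 and 235 CPM in TfR1-deficient cells (-0.81, SE 0.13), and Cd44, a partner of CD74 in signalling, was at -0.60 (SE 0.23). Of 12 genes of NF-kB and T cell activation, a pathway known to drive Cd83, 9 were lower (median -0.24), and Tnfaip3 passed unadjusted at -0.68 (SE 0.25). Of the 15 T cell and Treg genes 11 were lower (median -0.13), with Ctla4 again the one that passed unadjusted. Ctla4 and Cd4 stand both in this list and in that of the receptors, so the counts are not independent.

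As a share of the summed CPM of the 10 genes, Cd83 and Cd74 changed places between libraries. The sum was 996 and 822 CPM in WT and 721 and 1938 CPM in TfR1-deficient cells. Cd83 made up 48.2%, 67.1%, 66.0% and 21.5% of it in WT replicates 1 and 2 and TfR1-deficient replicates 1 and 2, and Cd74 30.9%, 18.4%, 18.1% and 53.3%.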

How the data were processed

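RNA of sorted splenic Treg cells was sequenced in 4 libraries, 2 WT and 2 TfR1-deficient, grouped by the sample labels. The table the authors deposited holds raw read counts by Ensembl gene identifier, 1 column a library. The submitters' processing notes name Trim Galore 0.6.7, STAR 2.7.9a, featureCounts and the build mm10, while the paper's methods name another build, so gene positions were taken from GRCm38.p6 by symbol. The strand setting and annotation release are not given in the sources used here. The study calls the replicates biological, but whether each is 1 animal or a pool is not given in the sources used here, and p-values measure only the spread between these libraries.

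Counts were fitted with edgeR 4.0.16 (R 4.3.3) by the quasi-likelihood test with genotype as the single term, TMM scaling and the default filter on low counts, which left 12536 genes and a common BCV (biological coefficient of variation) of 0.323. Genes were called at an adjusted p under 0.05 where the log2 fold change was 0.5 or more in size. Library totals were 12365708, 10841939, 17278448 and 13454577 counts. Replicates differed by more than sampling noise (chi-square per degree of freedom 32.1 in WT and 50.4 in TfR1-deficient libraries). Exon lengths for levels per kilobase are union exons of GENCODE vM1. On simulated counts with known changes the fit was checked first.

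The genes named are the 10 members, Csf1r, Tfrc, the 5 genes most like each profile, and genes of the lists where a result turns on them. The members and the lists (class II pathway, B7 family and related genes, receptors and other binding partners, MHC class I, NF-kB and activation, macrophage, dendritic cell, B cell, T cell and Treg) were chosen with earlier results of these data known. Alternatives were other scalings, filters, minimum changes and prior counts, DESeq2 1.42.0, a replicate block, and leaving out each library, where the lone library of a genotype is assumed to vary like the others.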

Additional observations from a re-analysis of the deposited data

How the results depend on the processing

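Precision was limited by 2 libraries a genotype, which differed up to 25.3-fold in a class II gene. Other scalings and a filter of 10 counts in every library changed no call among the 10 genes. That filter left out H2-Eb1 and Ciita, which had 9 and 2 counts in WT replicate 2. The replicate numbers share no stated origin, and the deviations of same-numbered libraries correlated at -0.61.

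Against 0 adjusted calls higher and 0 lower among all genes, fitting every gene with 1 count or more gave 167 and 95, with 4 of the 10 genes higher (6 unadjusted), and DESeq2 gave 7 and 37, with none of the 10. The cause was not tested. Unadjusted calls were 200 higher and 311 lower. They were 650 higher with every gene fitted, 91 and 104 when a log2 fold change of 1 was required, and 70 and 141 with the replicate block, under which the median of the 10 genes was 0.58 and none of them passed. Leaving out 1 library gave 169 to 353 higher (353 without TfR1-deficient replicate 1) and 131 to 382 lower (131 without WT replicate 1), 0 to 6 of the 10 genes higher and 0 to 1 lower, and a median from -0.68 to 2.32. The log2 fold changes then ran from -0.82 to 2.21 for Cd74, -1.53 to 5.08 for H2-Aa, -1.29 to 4.49 for H2-Ab1, -1.25 to 3.83 for H2-Eb1, -2.28 to 2.66 for H2-DMb1, -0.42 to 1.17 for Cd86 and -0.74 to 0.86 for Cd80. The negative ends of all but Cd80 came without TfR1-deficient replicate 2, and Cd80 was positive without WT replicate 1 (0.86) or TfR1-deficient replicate 1 (0.17). Chosen after seeing the data, a crossed replicate block paired WT replicate 1 with TfR1-deficient replicate 2. Of the 12536 tested genes, it gave 150 adjusted calls higher and 210 lower, and 596 and 519 unadjusted. Of the 10 genes, 3 were then higher adjusted and 4 unadjusted. Its pairs are the libraries with much Csf1r and those with little, so the block takes out the difference within genotypes that these same libraries showed. Its calls therefore give no independent information on the 10 genes.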
